A study of Mus musculus with 2 samples.

Results

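The 7 genes described here encode metalloproteinases made by macrophages and inhibitors of such enzymes: *Mmp8*, *Mmp12*, *Mmp14*, *Mmp19*, *Timp2*, *Timp3* and *Adam8*. They were taken by symbol from a list that was chosen with earlier results of these data known. They matched 7 of the 32285 Ensembl identifiers in both tables. Levels were followed in barcodes with at least 500 detected genes and at most 10% mitochondrial UMIs. The study sorted AMs (alveolar macrophages), which it defines as Siglec-F+, F4/80+ cells among the CD45+ autofluorescence+ cells of the lung, from C57BL/6 mice at post natal week 10. The Control-AM library came from vehicle-control mice, and the Tumor-AM library came from mice whose left lung had been inoculated with LLC (Lewis lung carcinoma) cells, a line derived from the same strain that the methods describe as given in PBS with Matrigel and, for the inoculated line, labelled with tdTomato. Both libraries passed through the same enzymatic lung digestion and cell sorting, and the methods state that experimental and control mice were bred separately. The number of mice pooled in each library is not given in the sources used here. In tumor-bearing lungs the autofluorescent cells also held Siglec-F-, CD11b+ macrophages, which the study gated apart from AMs, and for the single-cell sort the methods name AMs without listing the gate.

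Matrix metalloproteinases are zinc enzymes that cut extracellular matrix and other proteins, and they are made as inactive precursors. Most are secreted, as are the collagenase MMP8, the macrophage elastase MMP12 and MMP19, whereas MMP14 is anchored in the cell membrane and cuts pericellular collagen. TIMPs bind the active site of these enzymes and block it, and TIMP2 together with MMP14 also serves in the activation of the MMP2 precursor. ADAM8 is a membrane protease that sheds proteins from the surface of myeloid cells. In lung, MMP12 from macrophages is known for elastin breakdown.

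The filter left 6185 of 8485 control barcodes and 7666 of 9175 tumor barcodes, with 64850143 and 68801889 UMIs and medians of 10370 and 8264 UMIs per cell. Levels are in CPM, the UMIs of a gene in every 1000000 UMIs of the cells summed, with an exact 95% Poisson interval. Ratios carry exact conditional binomial intervals and shares exact binomial ones. All of these cover counting error only. There was 1 library for each condition, so values are given without a test, and the effects of library batch and of tumor cannot be told apart. A level summed over cells does not separate fewer positive cells from less RNA per cell, so shares of cells are given beside it. The 13 AM markers were all above 1 CPM in both libraries, with summed levels of 16764 and 14133 CPM. The libraries shared 17 of the kept barcodes, 0.275% and 0.222% of their cells, and profiles under a shared barcode had a median correlation of 0.692, against 0.689 for profiles under different barcodes. The median gene, among 12936 that reached 10 UMIs in both libraries, lay at -0.07 on the log2 scale of tumor over control.

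In GRCm38, *Mmp12* (ENSMUSG00000049723) lies on chromosome 9 from 7344381 to 7369499 and *Mmp8* (ENSMUSG00000005800) on the same chromosome and strand from 7558456 to 7568485, separated by 188956 bases. *Mmp14* (ENSMUSG00000000957) lies on chromosome 14 from 54431612 to 54445364 and *Mmp19* (ENSMUSG00000025355) on chromosome 10 from 128790910 to 128800824. *Timp2* (ENSMUSG00000017466) lies on the minus strand of chromosome 11 from 118301069 to 118355740, and *Adam8* (ENSMUSG00000025473) on the minus strand of chromosome 7 from 139978932 to 139992562. *Timp3* (ENSMUSG00000020044) lies on chromosome 10 from 86300372 to 86349506, within the bounds of *Syn3*, which is annotated on the other strand. *Syn3* itself had 1 UMI in control and 3 UMIs in tumor. All 7 members are protein-coding, with 5 exons in the longest coding transcript of *Timp2* and of *Timp3* and 24 in that of *Adam8*.

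Upstream windows were at hand from RefSeq (GRCm38.p6) for 6 of the 7 members. RefSeq starts differed from the gene starts above by 0 to 329 bases, apart from a second start of *Mmp12* that lies 2993 bases downstream. The 250 bases before the start are shown for *Mmp8* and *Mmp12*, which had lower levels in the tumor library, and for *Mmp14*, which had the largest ratio. They are read 5′ to 3′ on the gene's plus strand, and capitals mark matches, on either strand, to the AP-1 motif TGANTCA or to the PEA3 core AGGAAG. *Mmp12* has 2 windows, since RefSeq gives it 2 starts. Their positions are chr9:7558179-7558428 for *Mmp8*, chr9:7344147-7344396 and chr9:7347124-7347373 for *Mmp12*, and chr14:54431348-54431597 for *Mmp14*.
Mmp8: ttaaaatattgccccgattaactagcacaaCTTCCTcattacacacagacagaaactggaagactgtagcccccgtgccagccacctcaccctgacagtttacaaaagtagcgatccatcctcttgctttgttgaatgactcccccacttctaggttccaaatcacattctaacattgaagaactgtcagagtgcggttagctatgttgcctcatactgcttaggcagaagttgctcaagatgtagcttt
Mmp12, first start: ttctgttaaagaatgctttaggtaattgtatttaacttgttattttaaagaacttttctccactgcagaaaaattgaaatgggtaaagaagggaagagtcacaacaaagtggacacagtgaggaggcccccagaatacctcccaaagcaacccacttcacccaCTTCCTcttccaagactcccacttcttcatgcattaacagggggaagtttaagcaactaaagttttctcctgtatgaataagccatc
Mmp12, second start: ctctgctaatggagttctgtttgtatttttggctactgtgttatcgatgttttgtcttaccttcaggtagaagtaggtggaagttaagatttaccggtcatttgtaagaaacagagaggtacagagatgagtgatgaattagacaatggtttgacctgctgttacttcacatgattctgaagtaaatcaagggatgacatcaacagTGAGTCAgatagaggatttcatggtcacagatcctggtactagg
Mmp14: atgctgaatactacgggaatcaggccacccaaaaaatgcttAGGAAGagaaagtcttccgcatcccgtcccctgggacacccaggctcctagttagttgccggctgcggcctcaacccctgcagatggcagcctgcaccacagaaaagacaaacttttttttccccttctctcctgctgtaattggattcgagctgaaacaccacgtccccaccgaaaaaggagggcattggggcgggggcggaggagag

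The AP-1 motif was found in 1 of the 7 windows of the members, that of the second *Mmp12* start, from 44 to 38 bases before the start. Of all 32851 promoter windows of this length, 6.75% held it. The PEA3 core was found in the windows of *Mmp8*, the first start of *Mmp12*, *Mmp14* and *Timp3*, against 29.5% of all windows. The letters TATAA were found in that of *Timp3*, against 22.8% of all windows, and neither *Timp2* nor *Adam8* held a match to any of the 3 motifs. A match is a description of the letters and not a measured binding site.

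The members went both ways between the libraries. The membrane proteases *Mmp14* and *Adam8* had the largest ratios and were higher in the tumor library, as were *Mmp19* and *Timp2*. *Mmp12* and *Mmp8* were lower, and *Timp3* was nearly absent from macrophages of both libraries. All 7 had at least 50 UMIs over both libraries. Of them 2 were at least 2-fold higher in tumor, where 5.01% of the 12267 genes with as many UMIs were, and 1 was at least 2-fold lower, where 4.86% were. Since the members were chosen with earlier results of these data known, these counts are no measure of enrichment. The lower one, *Mmp12*, was just past the limit, and relative to the median gene or without the tumor-enriched clusters it no longer reached it, with log2 ratios of -0.998 and -0.97, while *Timp2* passed it relative to the median gene, at 1.05.

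**Figure D1:**
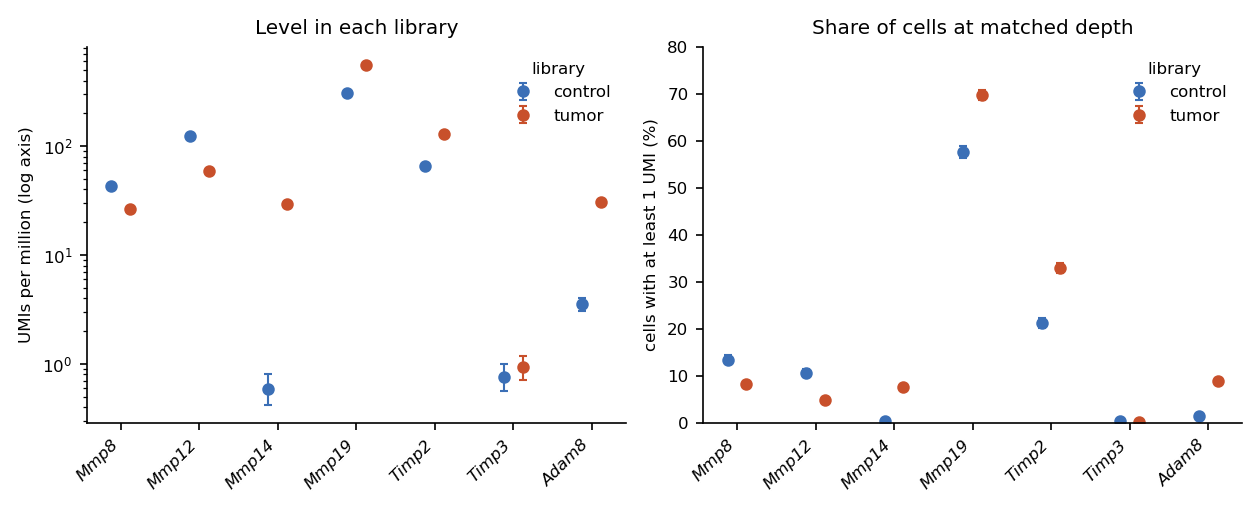
Left, CPM of each member in the control (blue) and tumor (orange) library on a log axis, with 95% Poisson intervals. Right, the percent of cells with at least 1 UMI after thinning to 3800 UMIs per cell, with 95% binomial intervals; *Mmp14* was at 0.586 CPM in control and 29.4 CPM in tumor, and *Mmp19* had the highest shares.

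*Mmp14*, the membrane-anchored collagenase, was nearly undetected in control AMs. The control library held 38 UMIs of it, 0.586 CPM (0.415 to 0.804), in 31 of 6185 cells, and no cell held more than 2. The tumor library held 2026 UMIs, 29.4 CPM (28.2 to 30.8), in 1146 of 7666 cells. The highest cell held 26 and lay in a small cluster of 33 cells led by *Dcn* and *Col3a1*, and no tumor cell outside that cluster held more than 8. The ratio of tumor over control was 50.3 (36.5 to 71.2), or 5.65 on the log2 scale (5.19 to 6.15).

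*Adam8*, the shedding protease, had 229 UMIs in control, 3.53 CPM (3.09 to 4.02), and 2109 in tumor, 30.7 CPM (29.4 to 32.0), a ratio of 8.68 (7.57 to 9.99). No control cell held more than 3 UMIs, and 47 tumor cells held at least 5.

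*Mmp19* was the most widely detected member. Its level was 309 CPM (305 to 313) in control and 563 CPM (557 to 568) in tumor, a ratio of 1.82 (1.79 to 1.85). It was below the 2-fold limit. *Mmp12*, the macrophage elastase, was lower in tumor. It had 8013 UMIs in control, 124 CPM (121 to 126), and 4062 in tumor, 59.0 CPM (57.2 to 60.9), and its log2 ratio was -1.07 (-1.12 to -1.01). *Mmp8*, a collagenase best known from neutrophils, had 2806 UMIs in control, 43.3 CPM (41.7 to 44.9), and 1824 in tumor, 26.5 CPM (25.3 to 27.8), with a log2 ratio of -0.71 (-0.79 to -0.62). Of 8 neutrophil markers, 4 in control and 3 in tumor were above 1 CPM, and the list's summed level was 71.0 and 124 CPM. Its part in the *Mmp8* levels was not tested. *Ngp* was at 0 in both libraries, and *Ly6g* and *Retnlg* at 0 in tumor.

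Of the inhibitors, *Timp2* was at 66 CPM (64.0 to 68.0) in control and 131 CPM (128 to 133) in tumor, a ratio of 1.98 (1.91 to 2.05), just under the 2-fold limit. *Timp3* had 49 UMIs in control, 0.756 CPM (0.559 to 0.999), and 64 in tumor, 0.930 CPM (0.716 to 1.19), and the interval of its log2 ratio, -0.26 to 0.87, held 0.

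For shares of cells, 3800 UMIs were drawn from each cell without replacement, which left out 595 shallower control cells and 729 tumor cells. The share with an *Mmp14* UMI was 0.250% (0.137 to 0.420) in control, with 5590 cells, and 7.64% (7.03 to 8.29) in tumor, with 6937. That with *Adam8* was 1.34% (1.06 to 1.68) and 8.79% (8.14 to 9.48). *Mmp19* was seen in 57.7% (56.4 to 59.0) and 69.8% (68.7 to 70.9), and *Timp2* in 21.1% (20.05 to 22.2) and 33.0% (31.8 to 34.1). These 4 shares were higher in tumor by 7.39, 7.45, 12.1 and 11.8 percentage points. *Mmp12* was in 10.5% (9.69 to 11.3) and 4.89% (4.39 to 5.42), and *Mmp8* in 13.4% (12.5 to 14.3) and 8.13% (7.50 to 8.80), which were differences of -5.60 (-6.57 to -4.64) and -5.27 (-6.39 to -4.16) percentage points. *Timp3* was in 0.268% (0.150 to 0.442) and 0.202% (0.110 to 0.338), a difference of -0.07 percentage points (-0.26 to 0.11). At full depth, the shares in control and tumor were 0.501% and 14.9% for *Mmp14*, 3.28% and 16.3% for *Adam8*, 78.6% and 83.1% for *Mmp19*, 41.5% and 52.2% for *Timp2*, 17.2% and 7.37% for *Mmp12*, 27.3% and 15.7% for *Mmp8* and 0.517% and 0.352% for *Timp3*. The order of the libraries was the same with and without thinning for each member.

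The background for these shares came from a cluster of 33 cells that was left unnamed, since its leading genes held both the fibroblast genes *Dcn*, *Col3a1* and *Lum* and the endothelial genes *Tm4sf1* and *Ramp2*. Of these cells 26 reached the thinning depth. None of the 26 had a UMI of *Mmp8*, *Mmp12* or *Adam8*, which by the limit of 3 counts allows a share of up to 11.5% (the exact binomial bound is 13.2%), and 4 had one of *Mmp19*, 15.4% (4.36 to 34.9). Before thinning these 26 cells had a median of 11167 UMIs and the macrophages 9729. So few cells set a wide limit. By library it was 42.9% from 7 control cells and 15.8% from 19 tumor cells. Each share of *Mmp8*, *Mmp12* and *Adam8* at matched depth lay below the limit of its own library. *Mmp14*, *Timp2* and *Timp3* were in 8, 14 and 6 of the 26, and fibroblasts are known to make these, so this cluster gives no background for them. In the tumor macrophage clusters with the least *Mmp14*, A and E, 0.903% and 0.601% of cells had a UMI of it.

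*Timp3*, the inhibitor that stays bound to the matrix, was concentrated in the same cluster led by *Dcn*. Its 9 control cells held 19 of the library's 49 UMIs, 419 CPM (253 to 655), and the 24 tumor cells held 44 of 64, 121 CPM (87.6 to 162). In control 4 of the 9 cells held all 19, and in tumor 5 cells held 40 of the 44, with 13.2 CPM without them. All other cells came to 30 UMIs in control, 0.463 CPM (0.312 to 0.661), and 20 in tumor, 0.292 CPM (0.179 to 0.451). Without that cluster its log2 ratio was -0.66, where it was 0.30 (-0.26 to 0.87) with them. The same cells held 0.982% and 1.02% of the *Timp2* UMIs of the libraries. They held none of the 38 *Mmp14* UMIs of control and 79 of 2026 in tumor, a level of 216 CPM (171 to 270) with 92.4% of it in 5 cells, so 96.1% of tumor *Mmp14* UMIs lay in other cells. Over each whole library, the summed level of the 6 fibroblast markers was 0.771 CPM in control, with *Lum* at 0, and 32.4 CPM in tumor, and that of the 4 endothelial markers was 5.72 and 4.37 CPM. These sums cover whole libraries, so the type of the control cells of the cluster was not tested.

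Cells were grouped into 19 clusters with 50 cells or more, which carry the letters A to S in order of size, to find the states that carry the members. The members and the other genes of the metalloproteinase list were kept out of the features used for clustering. In 5 clusters, D, F, N, P and R, at least 90% of the cells came from the tumor library after equal weighting, in all 2862 tumor and 120 control cells. D was led by *Il6*, *Vps37b* and *F13a1*, F by *Apoe*, *Hpse* and *Slamf7*, N by *Ckb*, *F13a1* and *Osm*, P by the interferon genes *Rsad2*, *Ifit1* and *Ifit3*, and R by *Hspa1b*, *Hspa1a* and *F13a1*. Of clusters with cells of both libraries, A was led by *Abca1*, C by *Fstl1* and *Mfge8*, E by *Fabp1*, and H by *Cxcl9* and MHC class II genes such as *H2-Aa*. I was a low-depth cluster led by nuclear RNAs, with a median of 2666 UMIs and 6.55% mitochondrial UMIs. O and Q were led by proliferation genes such as *Hist1h2ap* and *Cenpf*, and S was a mixed group of 57 cells led by *S100a9* and *Igkc*. Another 82 cells were in 4 smaller clusters, the one led by *Dcn* among them.

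**Figure D2:**
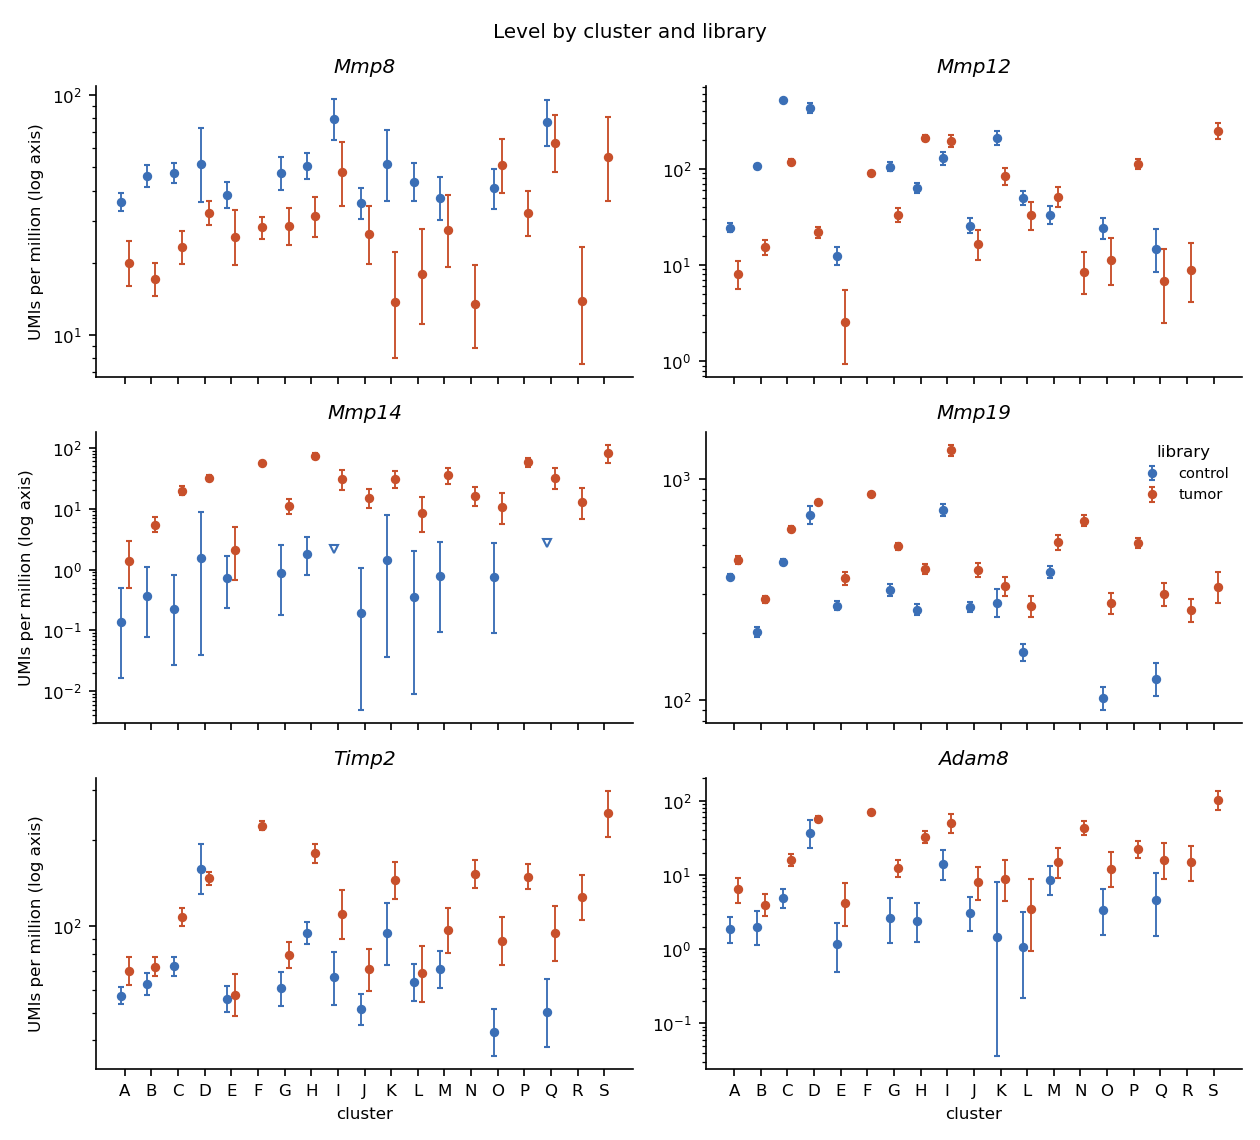
CPM of 6 members on log axes in each cluster (A to S) and library, shown where a cluster had at least 20 cells of that library, with 95% Poisson intervals; open triangles mark the limit of 3 UMIs where none was counted. Tumor *Mmp14* lay above control in each of the 14 clusters with both libraries, though in E the interval of the ratio held 0, and control *Mmp12* peaked in cluster C at 510 CPM.

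In tumor, *Mmp14* was highest in S, H, P and F, whose intervals overlapped in order. The levels were 81.1 CPM (57.4 to 111) in S, 73.6 (64.8 to 83.2) in H, 57.5 (48.7 to 67.5) in P and 56.8 (52.7 to 61.2) in F. The interval of F did not overlap that of M, the next cluster, at 35.4 CPM (25.8 to 47.4). The lowest levels were in E at 2.11 CPM (0.685 to 4.92) and A at 1.37 CPM (0.502 to 2.98), whose intervals overlapped. At matched depth, 21.5% (16.9 to 26.7) of the H cells of the tumor library had an *Mmp14* UMI, as did 18.2% (13.2 to 24.1) of the P cells, 17.3% (15.002 to 19.7) of the F cells and 10.8% (3.03 to 25.4) of the S cells. In S 5 of the 40 cells held 50% of the UMIs, and without the 5 leading cells of each cluster S was at 48.7 CPM, below H at 67.3 and F at 54.4. These 5 cells are a larger part of S than of the 293 tumor cells of H or the 1040 of F. The levels without them therefore do not rank S against H and F. F held 34.6% of the library's *Mmp14* UMIs, D 15.2% and H 12.6%. In control, H had 1.80 CPM (0.824 to 3.42) from 9 UMIs, and the 18 control cells of F held 5 of the 38 UMIs, 24.3 CPM (7.88 to 56.6).

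*Adam8* was highest in tumor in S, at 102 CPM (75.5 to 136), 70.8% of it from 5 cells, and then in F at 69.6 CPM (64.98 to 74.4) and D at 56.6 CPM (51.9 to 61.5). Without the 5 leading cells of each cluster S was at 35.3 CPM, below F at 65.8, D at 54.1 and N at 36.6. The 5 cells are again a larger part of S than of the others, so this does not rank S against them. The intervals of F and D were apart from each other, and that of D overlapped the next, I at 49.9 CPM (36.5 to 66.6). F and D together with N, P and R held 74.3% of the tumor *Adam8* UMIs, against 40.3% of the UMIs of all genes. The level in these tumor-enriched clusters was 56.6 CPM (53.8 to 59.4) and in the other tumor cells 13.2 CPM (12.1 to 14.3). The control cells of D, 62 in number, were at 36.2 CPM (22.9 to 54.3), the highest control level among clusters with at least 20 such cells. In control, the next was I at 14.0 CPM (8.43 to 21.9).

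*Timp2* was also highest in tumor in S, F and H, with 248 CPM (205 to 297) in S, where 5 cells held 58 of its 116 UMIs, 224 (216 to 233) in F, 180 (166 to 194) in H and 57.8 (48.5 to 68.4) in E, the lowest. Without the 5 leading cells of each cluster S was at 149 CPM, below F at 216 and H at 166, with the same unequal removal as for *Mmp14*. In control, D was highest at 159 CPM (129 to 193), then K at 95 CPM (73.5 to 121) and H at 94.9 CPM (86.6 to 104), and O lowest at 42.8 CPM (35.3 to 51.5). The 18 control cells of F were at 252 CPM (189 to 331), where F of tumor was at 224.

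*Mmp19* was above 100 CPM in each of these clusters. In tumor it was highest in I at 1347 CPM (1273 to 1424), then F at 858 (841 to 874) and D at 786 (769 to 804), and lowest in R at 254. In control it was highest in I at 724 CPM (679 to 770) and D at 689 (626 to 756), whose intervals overlapped, and lowest in O at 101.5 CPM (89.7 to 114). Cells of I were shallow, and 126 control and 92 tumor cells of it reached the thinning depth, with 81.0% and 87.0% holding a UMI of *Mmp19*.

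*Mmp8* had no 2 neighbours in the order of its levels with intervals apart from each other in either library, though clusters further along the order could be apart. In control it was highest in I, 79.6 CPM (65.3 to 96.1), and Q, 77.0 CPM (61.5 to 95.4), and lowest in J at 35.5 CPM. The intervals of I and Q lay above that of H, at 50.7 CPM (44.6 to 57.3). In tumor it was highest in Q at 63.4 CPM (47.9 to 82.4) and lowest in N at 13.4 CPM (8.86 to 19.6). In Q 5 of the 74 tumor cells held 53.6% of the *Mmp8* UMIs. Without the 5 leading cells of each cluster Q was at 32.1 CPM in tumor, near O at 30.6 and D at 29.4. The 5 cells are a larger part of the 74 of Q than of the 1174 tumor cells of D.

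Of *Mmp8*, *Mmp12*, *Mmp19* and *Timp2*, the 4 members well detected in both libraries, *Mmp12* was held by the fewest cells. The 61 control cells with the most UMIs of it, 1% of the library, held 49.6% of all its UMIs, and the 76 top tumor cells held 70.8%. For *Mmp19* the same fraction of cells held 6.11% and 7.47%, for *Timp2* 8.35% and 10.4%, and for *Mmp8* 12.4% and 21.3%. Single cells reached 210 *Mmp12* UMIs in control and 254 in tumor. At matched depth, at least 10 UMIs were found in 44 of 5590 cells in control, 0.787% (0.572 to 1.06), and in 28 of 6937 in tumor, 0.404% (0.268 to 0.583). These cells held 44.6% and 46.1% of its thinned UMIs. Without the top 1% of cells the log2 ratio was -1.85, where it was -1.07 with them. The top 1% is taken over all cells, of which a smaller share had an *Mmp12* UMI in tumor. The counting intervals of *Mmp12* levels do not cover this spread between cells.

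**Figure D3:**
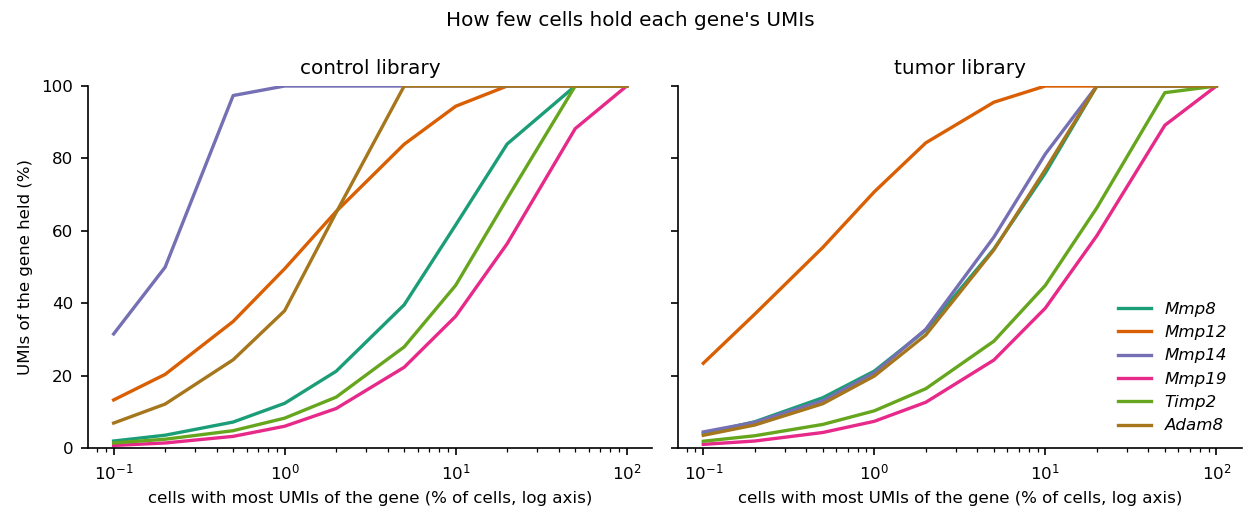
Percent of each member's UMIs held by the cells with the most UMIs of it, against the percent of all cells taken (log axis), in the control and tumor library. The line of *Mmp12* passes 49.6% and 70.8% of UMIs at 1% of cells, and that of *Mmp19* 6.11% and 7.47%; the steep control lines of *Mmp14* and *Adam8* rest on 31 and 203 positive cells.

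In control, most *Mmp12* UMIs lay in cluster C, whose leading genes include *Mfge8*, *Ctsk* and *Inhba*. C held 57.5% of the control *Mmp12* UMIs at 510 CPM (496 to 525), and 29.8% (26.3 to 33.4) of its cells had a UMI at matched depth. Control cells of D were at 428 CPM (378 to 482), and 34.5% (22.5 to 48.1) had a UMI. The 18 control cells of F were at 1267 CPM (1118 to 1430), with 84.3% of it in 5 cells. Of the 44 control cells with at least 10 thinned UMIs, 31 were in C. In tumor the level in C was 116 CPM (108 to 124), with 9.09% of cells, and 5 of the 28 high cells were in C, 7 in F and 6 in H. The order in tumor was led by S at 245 CPM (203 to 295), but without its 5 leading cells S was at 7.92 CPM. H followed at 206 CPM (192 to 222) and remained at 123 CPM without its 5 leading cells.

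The few control cells of the tumor-enriched clusters were rich in *Mmp12*. These 120 cells were at 543 CPM (503 to 585), against 115 CPM (113 to 118) in the other control cells and 59.2 CPM (56.4 to 62.1) in the 2862 tumor cells of the same clusters. Without the 5 leading cells of each set the values were 297, 100.7 and 36.8 CPM. The same control cells were at 581 CPM of *Mmp19* and 163 CPM of *Timp2*, against 303 and 64.1 CPM in other control cells, and at 28.7 CPM (20.1 to 39.7) of *Adam8* against 3.03 CPM (2.62 to 3.49). Their *Mmp14* came to 7 UMIs, 5.58 CPM (2.24 to 11.5), where tumor cells of these clusters were at 43.5 CPM (41.1 to 46.1). For *Timp2* the tumor cells were at 181 CPM (176 to 187), near these control cells, whose interval was 141 to 186 CPM.

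The comparison of the libraries was repeated within the 14 clusters that had at least 20 cells of each. *Mmp19* was higher in tumor in 14 of 14 by the counting interval, *Mmp14* in 13, and *Timp2* and *Adam8* in 11 each, and the remaining intervals held 0. *Mmp8* was lower in 10, with 4 intervals that held 0. Without the 5 leading cells of each library it was higher in D, at 24.2 CPM in control and 29.4 CPM in tumor. There the 5 cells were taken from 62 control and 1174 tumor cells and held 57.6% and 9.87% of the UMIs. So unequal a removal does not show a higher tumor level in D. *Mmp12* was lower in 10, higher in 3, H, I and M, with 1 interval that held 0. For *Timp3* all 14 intervals held 0 or the gene had no UMI.

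The size of the *Mmp14* ratio within clusters rested on very few control UMIs. H had the most with 9, and there the log2 ratio was 5.35 (4.40 to 6.50), with 1.80 CPM in control and 73.6 CPM in tumor. In I and Q no control UMI was counted, and the tumor levels were 13.7 and 11.5 times the limit of 3 control UMIs, with exact intervals of the log2 ratio that began at 3.39 and 3.13. E was the exception, with 5 UMIs in each library, 0.722 and 2.11 CPM, and a log2 ratio of 1.55 (-0.57 to 3.67).

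*Adam8* had its largest ratio among these clusters in H, at 2.40 CPM (1.24 to 4.20) in control and 32.2 CPM (26.5 to 38.7) in tumor, a log2 ratio of 3.74 (2.88 to 4.74). In D it was 0.65 (0.05 to 1.32), the smallest. *Timp2* in H was at 94.9 CPM in control and 180 CPM in tumor, a log2 ratio of 0.92 (0.75 to 1.10). In D it was at 159 and 147 CPM, and its log2 ratio was -0.11 (-0.40 to 0.20). *Mmp19* had its largest ratios in the proliferation clusters O, 1.43 (1.19 to 1.67), and Q, 1.28 (0.97 to 1.59), where its control levels were the lowest.

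Among these 14 clusters, *Mmp12* had its lowest ratio in D, at 428 CPM (378 to 482) in control and 21.7 CPM (18.9 to 24.9) in tumor. The log2 ratio was -4.30 (-4.56 to -4.03), from 62 control cells of which 5 held 49.6% of the UMIs, and in C it was -2.14 (-2.24 to -2.03). In H it was at 63.1 CPM (56.3 to 70.5) in control and 206 CPM in tumor, a log2 ratio of 1.71 (1.52 to 1.91). Without the 5 leading cells of each library, *Mmp12* was lower in tumor in 13 of the 14 clusters, I and M among them, and H alone stayed higher, at 38.1 CPM in control and 123 CPM in tumor. In H, 8.93% of cells were among those with the highest doublet scores, and the epithelial gene *Epcam* was among its leading genes, and their part in its levels was not tested. Of the 14 clusters, H was the one where *Mmp12*, *Mmp14* and *Adam8* were all higher in tumor also without the 5 leading cells of each library. *Mmp8* was lower in H, with a log2 ratio of -0.69 (-1.03 to -0.36).

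**Figure D4:**
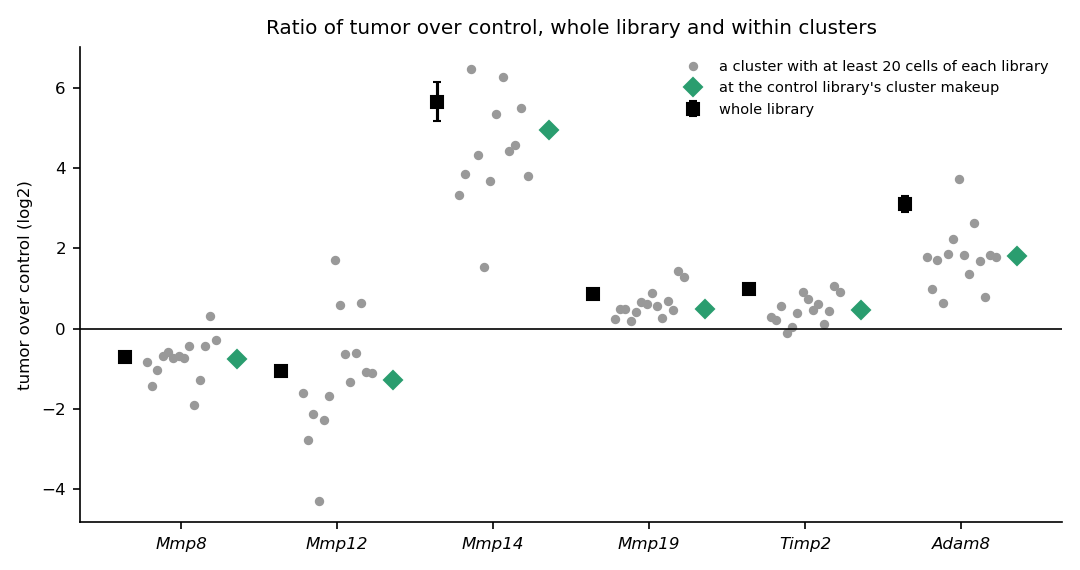
Log2 ratio of tumor over control CPM for 6 members over the whole library (black squares, 95% intervals), within each of the 14 clusters with at least 20 cells of each library (grey; clusters with no control UMI are left out, and points are spread sideways in cluster order), and at the control library's cluster makeup (green). The *Mmp12* points above 0 are H, I and M, and the green points of *Mmp14*, *Mmp19*, *Timp2* and *Adam8* lie nearer to 0 than the black ones.

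Tumor levels were then weighted to the control library's makeup of the 14 clusters, so that the tumor-enriched states other than D did not enter. The log2 ratio was 4.97 for *Mmp14*, 1.81 for *Adam8*, 0.49 for *Mmp19* and 0.45 for *Timp2*, where the unweighted ratios were 5.65, 3.12, 0.87 and 0.98. For *Mmp8* and *Mmp12* it was -0.77 and -1.28. The direction was the same for each of these 6 members, while *Mmp14*, *Adam8*, *Mmp19* and *Timp2* lay nearer to 0 at the control makeup. With clusters made without correction for library, the ratios at that makeup were 3.66 for *Mmp14* and 1.01 for *Adam8*. Markers of monocyte-derived or interstitial macrophages moved with the tumor library too. Of these 8 genes 3 were above 1 CPM in control and 7 in tumor, with a summed level of 16.0 and 96.3 CPM, and the sum over both libraries was 1259 CPM in S, 224 in F, 112 in D, 87.8 in N, 82.5 in R and 80.3 in H. The methods do not list the gate of this sort, and whether Siglec-F- macrophages were among the sorted cells was not tested. Other lists also differed between the libraries. The summed level of 10 immediate early genes was 3920 CPM in control and 6448 in tumor, that of 5 heat shock genes 858 and 1207, and that of 6 epithelial markers 84.5 and 21.99. A list of 5 genes named for *Apoe* and *S100a6* came to 522 CPM in control and 3136.5 in tumor. For 7 chemokine genes the sums were 1216 and 2437 CPM, and for 8 cycling genes 626 and 370. The part of these lists in the member levels was not tested.

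Within the tumor library, some pairs of members were found together in single cells more often than others. At matched depth, *Mmp14* was in 21.5% (17.3 to 26.3) of the 339 cells with *Mmp12* and in 6.93% (6.33 to 7.57) of the rest. Of the 530 cells with *Mmp14*, 48.7% (44.3 to 53.0) had *Timp2*, against 31.7% (30.5 to 32.8) of the rest, and 17.5% (14.4 to 21.1) had *Adam8*, against 8.07% (7.41 to 8.76). In control, *Mmp8* and *Mmp12* shared cells, with *Mmp8* in 20.5% (17.3 to 24.0) of the 586 cells with *Mmp12* and in 12.6% (11.7 to 13.5) of the rest. The intervals of these 4 comparisons did not overlap. Other control pairs were apart too, such as *Mmp19*, in 66.7% (62.7 to 70.5) of cells with *Mmp12* and in 56.7% (55.3 to 58.0) of the rest. In tumor the intervals overlapped for *Mmp8*, which was in 10.0% (7.05 to 13.7) of cells with *Mmp12* and in 8.03% (7.39 to 8.71) of the rest. Of the 564 tumor cells with *Mmp8*, 33.2% (29.3 to 37.2) had *Timp2*, against 32.9% (31.8 to 34.1) of the rest, and 9.40% (7.12 to 12.1) had *Adam8*, against 8.74% (8.06 to 9.46). For *Mmp19* the intervals were apart, at 75% (71.2 to 78.5) and 69.4% (68.2 to 70.5). The cells of 1 library share its preparation, and the part of shared clusters in these values was not tested. Of the 7 members, a cell at matched depth had on average 1.05 in control and 1.32 in tumor, and 27.3% and 17.9% of cells had none.

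The genes most like each member in pattern were ranked by Pearson's r of log2(CPM + 5) over 33 sums of a cluster and library, among 7858 genes. These points share 2 libraries and their depth, so r is a description. For *Mmp14* they were *Ly6e* (0.95), *Igf2r* (0.94) and *Oas3* (0.93), of which *Ly6e* and *Oas3* are known interferon-stimulated genes. The summed level of 8 interferon genes was 24.5 CPM in control and 182 CPM in tumor, with 5 and 8 of them above 1 CPM, and its part in the *Mmp14* level was not tested. For *Adam8* they were *Vegfa* (0.92), the endothelial growth factor, *Neurl3* (0.92) and *Vps37b* (0.92). For *Timp2* they were *Hopx* (0.92), *Prkcb* (0.92) and *Plekho1* (0.91), and for *Mmp19* *Csf2rb* (0.88), the beta chain of the GM-CSF receptor, *Slc41a2* (0.88) and *Irak2* (0.87). For *Mmp12* they were *Sirpb1c* (0.78), the lysosomal protease gene *Ctsz* (0.75) and *Igf1* (0.67), and for *Mmp8* *Lsg1* (0.75), *5530601H04Rik* (0.74) and *Abca2* (0.74). *Timp3* did not reach 20 CPM in any sum. Among members, the 19 sums of the tumor library gave r = 0.87 for *Timp2* with *Adam8*, 0.85 for *Timp2* with *Mmp14* and 0.77 for *Mmp12* with *Mmp14*. Over the 14 sums of the control library these were 0.60, 0.69 and 0.31, and over all 33 sums 0.85, 0.81 and 0.15. The control sums of *Mmp14* held at most 9 UMIs each, near the floor, so the control values with *Mmp14* are uncertain.

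Around the members, the list of metalloproteinases, TIMPs, ADAM and ADAMTS proteases and of proteins that activate, dock or clear them held 76 genes, the 7 members included. Of these, 31 had at least 50 UMIs over both libraries, and 26 had at most 3. Of the 31, 5 were at least 2-fold higher in tumor, 3 at least 2-fold lower and 23 neither, where 5.01% and 4.86% of all genes with as many UMIs were higher and lower. Without the members, 3 of 24 were higher and 2 lower. This list too was chosen with earlier results known, so its counts are no measure of enrichment. Over the 31 genes the median log2 ratio was 0.10, against -0.06 over all genes with as many UMIs. The higher ones beside *Mmp14* and *Adam8* were *Mmp2*, *Adam19* and *Adamts1*, each under 2 CPM. *Mmp2*, the gelatinase that MMP14 activates, had 1 UMI in control and 106 in tumor, of which 1 and 20 were in the cluster led by *Dcn*, and its log2 ratio was 6.64 (4.13 to 11.96). *Adam19* had 1 and 49 UMIs, a log2 ratio of 5.53 (2.98 to 10.86). *Adamts1* had 23 and 57 UMIs, of which 22 and 47 were in the same cluster. The lower ones beside *Mmp12* were *Adam22*, with 12.8 CPM in control and 6.05 in tumor, a log2 ratio of -1.09 (-1.26 to -0.92), and *Rhbdf1*, at 2.81 and 1.29 CPM. Except for *Adam22*, these list genes were named after their values were seen.

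Abundant other genes of the list were nearly level between the libraries. *Cd44*, a surface receptor that docks MMPs, was at 1734 CPM in control and 1870 CPM in tumor. *Lrp1*, an endocytic receptor that clears them, was at 398 and 417 CPM, and *Plaur*, the urokinase receptor, at 371 and 398 CPM. *Furin*, a protease that removes the propeptide of MMP14, was at 191 and 205 CPM. The remaining inhibitor with at least 50 UMIs, *Timp1*, was at 1.604 and 2.98 CPM from 104 and 205 UMIs, a log2 ratio of 0.89 (0.55 to 1.25). No secreted or membrane protein was measured, so these values describe transcripts.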

How the data were processed

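The authors made the deposited counts, unnormalized UMI counts per gene and cell barcode from 10x 3′ libraries, with Cell Ranger. The submitters' processing notes name version 4.0.0, bcl2fastq 2.20 and build mm10, whereas the methods name a later Cell Ranger version. Of 32285 identifiers, 32158 were matched to a symbol, and positions came from GENCODE M21. The 3′ UMI counts were not scaled by length, so levels were compared within a gene. CPM used all UMIs of the cells summed.

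Clusters came from 2000 variable genes, 50 components, a mutual nearest neighbour correction of library and a Leiden partition at resolution 1. Scrublet's automatic threshold marked 0 cells, so doublets were kept. An alternative left out cells above the score that 6% should exceed, which with tied scores were 274 control and 410 tumor cells. An upper mitochondrial limit and the clustering could each change the cells counted. The intervals and thinning were tested on simulated data. The members and lists were chosen with earlier results of these data known. Named genes were the 7 members, list genes of at least 10 CPM and 2-fold, the 5 most abundant others, the 3 most like each member and *Syn3*, and 1 gene that this rule names is not reported here. Alternatives changed doublets, filters, scaling, thinning, clustering and UMI or fold limits. The work used Python 3.11.15, scipy 1.17.1, scanpy 1.11.5 and leidenalg 0.10.2.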

Additional observations from a re-analysis of the deposited data

Results flagged for a closer look

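Within clusters, *Mmp12* went against its direction elsewhere in 3 of the 14 clusters with both libraries, where the tumor level was higher, with a log2 ratio of 1.71 in H, 0.59 in I and 0.63 in M. The difference between clusters was not tested. In I the 5 leading cells held 92.7% of the tumor *Mmp12* UMIs and in M 69.2%, and without the 5 leading cells of each library both went from higher to lower.

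A signal was also present in barcodes that the report left out. The 2300 control and 1509 tumor barcodes below the gene minimum or above the mitochondrial limit held 2996945 and 1936431 UMIs. There the levels in tumor exceeded those in control, with a log2 ratio of 4.67 (2.71 to 7.78) for *Mmp14*, 4.61 (3.85 to 5.47) for *Adam8*, 1.08 (0.99 to 1.17) for *Mmp19* and 0.54 (0.07 to 1.01) for *Timp2*. *Mmp8* and *Mmp12* were lower in tumor there too, at -1.67 (-2.70 to -0.76) and -1.80 (-2.40 to -1.25). *Adam8* was at 5.01 and 122 CPM in these barcodes, above its levels of 3.53 and 30.7 CPM in the kept cells, and *Mmp14* at 0.667 and 17.0 CPM.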

How the results depend on the processing

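No paired analysis was possible because each condition had 1 library. Of 119 values under other settings, 36 moved by more than their counting error, and no member but *Timp3*, whose interval held 0, turned its sign. The cause of the shifts below was not tested. Ratios are log2 of tumor over control. With the mean of each cell's own CPM the ratio was -0.82 for *Mmp8*, -1.37 for *Mmp12*, 5.15 for *Mmp14*, 0.80 for *Mmp19*, 0.79 for *Timp2* and 2.88 for *Adam8*. Relative to the median gene ratio it was -0.998 for *Mmp12*, 0.93 for *Mmp19* and 1.05 for *Timp2*, which then passed 2-fold as *Mmp12* no longer did. With mitochondrial and ribosomal genes left out of the total it was 0.82 for *Mmp19*. *Timp3* was at 0.96 with a mitochondrial limit of 5% and at -0.66 without the cluster led by *Dcn*.

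Alternatives added after seeing the data were these. Without the tumor-enriched clusters the ratio was -0.97 for *Mmp12*, 0.49 for *Mmp19*, 0.59 for *Timp2*, 0.96 for *Timp3* and 2.12 for *Adam8*. Without the 1% of cells with the most UMIs it was -0.86 for *Mmp8*, -1.85 for *Mmp12* and 3.49 for *Adam8*. Without cluster H it was -1.33 for *Mmp12*.

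The difference of shares in percentage points was -3.96 for *Mmp8*, 4.09 for *Mmp14*, 7.87 for *Timp2* and 4.42 for *Adam8* at 2000 UMIs. At 6000 UMIs it was -6.52 for *Mmp8*, -6.85 for *Mmp12*, 11.6 for *Mmp14*, 15.8 for *Timp2* and 11.02 for *Adam8*. With at least 2 UMIs asked of a cell it was -1.21 for *Mmp8*, -3.01 for *Mmp12*, 1.34 for *Mmp14*, 17.0 for *Mmp19*, 5.63 for *Timp2* and 1.59 for *Adam8*.

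At the control makeup without library correction the ratio was -1.11 for *Mmp8*, -1.62 for *Mmp12*, 3.66 for *Mmp14*, 0.39 for *Mmp19*, 0.24 for *Timp2* and 1.01 for *Adam8*. It was -1.38 for *Mmp12* at resolution 0.5, and -1.77 for *Mmp12* and 0.38 for *Timp2* at resolution 1.5. List genes at least 2-fold higher numbered 10 at a minimum of 10 UMIs and 2 at a minimum of 200 UMIs, and 9 at a 1.5-fold limit. Those lower numbered 5 at a minimum of 10 UMIs.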
